A study of Mus musculus with 10 samples.

Results

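The genes described here are 10 mouse genes widely used to recognise macrophages: Csf1r, Adgre1, Itgam, Cx3cr1, Mrc1, Cd163, Lyz2, C1qa, C1qb and C1qc. They were chosen by symbol, and all 10 were found among the 54446 gene identifiers of the count files. RNA sequencing was done on tumours of TH-MYCN mice, a neuroblastoma model in which a rat tyrosine hydroxylase promoter drives human MYCN in cells of the neural crest lineage, so that the transgene is not designed to act in macrophages. Every library came from the TH-MYCN strain. Tumours were untreated (n = 3 libraries, repeats 1 to 3), or had 24 h (n = 3, repeats 2 to 4) or 5 days (n = 4, repeats 1 to 4) of a combination treatment. The combination is named in the series design as MLN8237, an inhibitor of the Aurora-A kinase, and AZD6738, an inhibitor of the ATR kinase; the design joins the compounds with "or" and the titles call the treatment a combination. Age, dose and schedule are not given in the labels. The labels do not say whether each library was a different mouse. The p-values set each group difference against the spread between libraries, which need not be the spread between mice.

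Macrophages take up dying cells and debris, and in tumours they are often the most common immune cells. Csf1r is the receptor through which CSF1 and IL34 keep macrophages alive, and the remaining genes cover surface receptors (Adgre1, Itgam, Cx3cr1), scavenger receptors typical of resident or alternatively activated macrophages (Mrc1, Cd163) and secreted products (Lyz2 and the C1q chains). Many macrophage genes carry binding sites for PU.1, an ETS family factor that is required for the myeloid lineage. Most of these genes are also expressed in some other myeloid or stromal cells.

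In whole tumour RNA, more macrophages and more RNA of these genes per macrophage cannot be told apart. Libraries held 5576926 to 5696436 counts and 19790 to 21264 genes with a count. A value of 3 counts corresponded to 0.527 to 0.538 CPM, the count relative to the library's total. The tumour label was checked against an adrenergic neuroblastoma list of 11 genes, among them Hand2, Th and Dbh, whose summed level was 1961 to 3036 CPM in 9 libraries. In 5-day library 1 that sum was 673 CPM, below all the others, while summed fibroblast genes reached 17736 CPM against 348 to 2695 CPM elsewhere. Adipocyte genes summed to 8136 CPM there against 15.6 to 1047 CPM elsewhere. That library stood apart in nearly every gene described below, so the main results of the members are given with it and without it.

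Lyz2, C1qb and C1qc were the members with the clearest order between groups. Each was higher in all 3 libraries at 24 h than in all 3 untreated libraries, by 0.76 to 0.86 on the log2 scale. Of all genes tested, 7.11% were higher at 24 h in this way. Lyz2 and C1qb were also above all untreated libraries in all 4 tumours at 5 days, as were 4.01% of all genes tested. In 5-day library 1, all 9 members with counts were above every other library, as were 37.8% of all genes tested, Mrc1 by 28.6-fold and Cx3cr1 by 4.72-fold over the untreated mean. None of the 9 members tested passed the adjusted threshold in any comparison, where 0% of the 14956 genes tested passed with all libraries. Itgam was not tested. Csf1r, Adgre1, C1qa, Cx3cr1, Mrc1 and Cd163 overlapped between groups in every comparison.

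**Figure D1:**
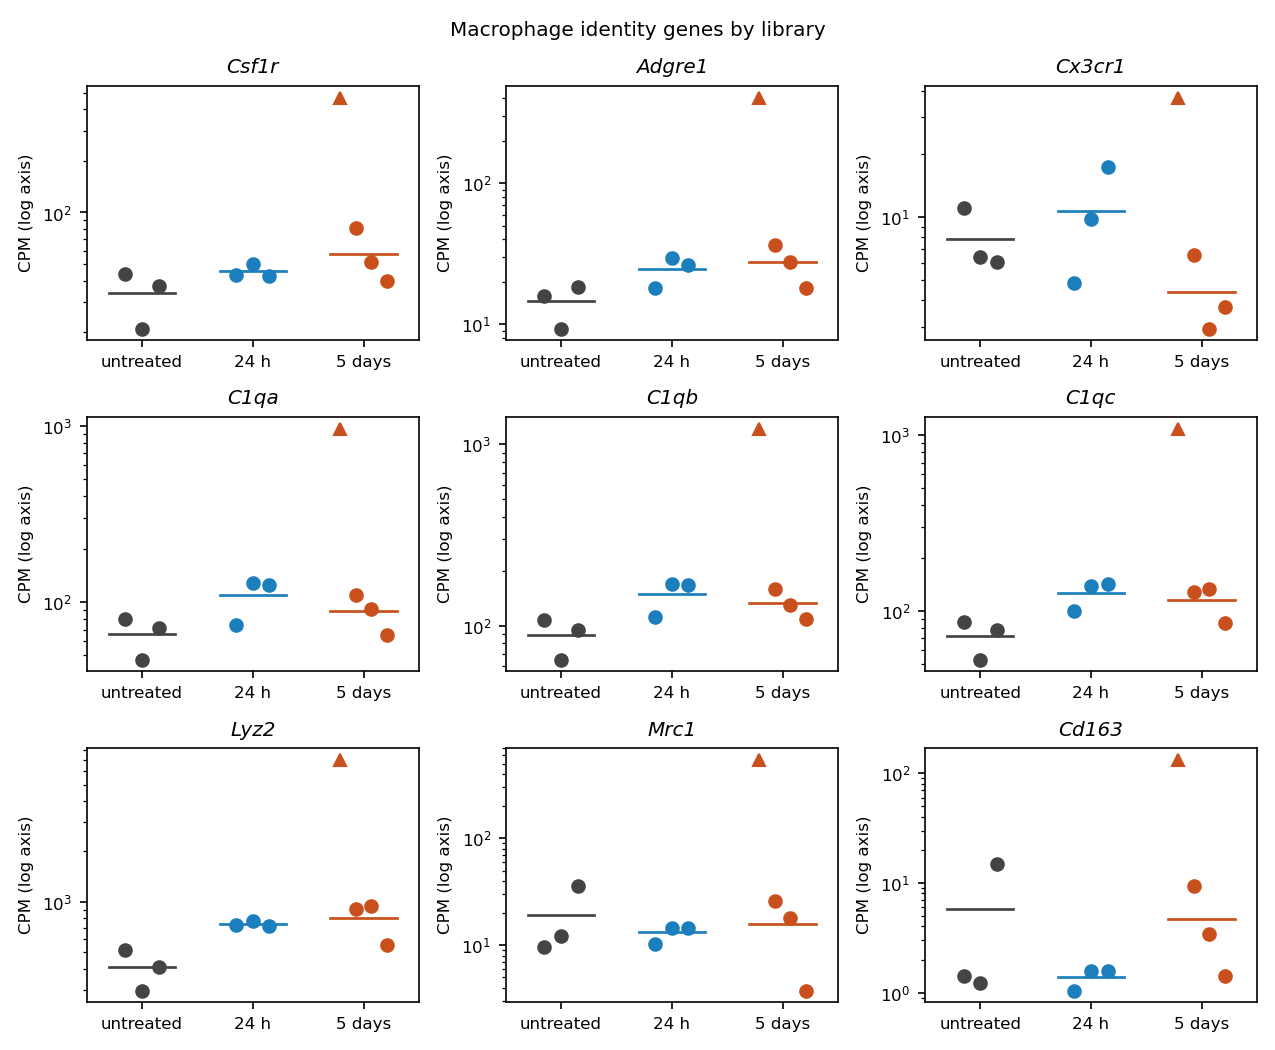
Level of the 9 members with counts in each library, in CPM on a log axis, grouped as untreated, 24 h and 5 days. Each point is 1 library, the triangle is 5-day library 1 and the line is the group mean without it. In every panel the triangle lies above all other points; for Lyz2, 9 libraries lie between 295 and 939 CPM and the triangle at 7062 CPM.

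Promoter sequence was available from RefSeq (GRCm38.p6) for 7 of the 10 members, all but Csf1r, Adgre1 and C1qa. The short string AGGAAGT, which reads ACTTCCT on the other strand and belongs to the class that ETS factors such as PU.1 bind, lay within 250 bases before the start of Lyz2, C1qb, C1qc and Mrc1, 4 of these 7 genes. It lay in 7.69% of all 32851 promoters on either strand. The 4 stretches are shown because these genes include both the members that kept an order between groups and Mrc1, which did not; Lyz1, the near copy of Lyz2 beside it on chromosome 10, is shown to let the copies be compared. Each is printed 5′ to 3′ on the strand of its gene, with ACTTCCT in capitals.
Lyz2, chr10:117282323-117282392, minus strand: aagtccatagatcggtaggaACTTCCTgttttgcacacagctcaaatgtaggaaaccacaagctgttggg
Lyz1, chr10:117292919-117292988, minus strand: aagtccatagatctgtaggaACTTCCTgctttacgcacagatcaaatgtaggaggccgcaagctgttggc
C1qb, chr4:136886221-136886290, minus strand: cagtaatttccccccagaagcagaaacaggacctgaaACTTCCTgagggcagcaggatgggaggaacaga
C1qc, chr4:136893066-136893135, minus strand: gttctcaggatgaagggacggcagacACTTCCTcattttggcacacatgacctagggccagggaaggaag
Mrc1, chr2:14229174-14229243, plus strand: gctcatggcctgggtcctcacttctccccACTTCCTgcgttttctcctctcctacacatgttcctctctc
Counted from the RefSeq start, the match began 100 bases before it in Lyz2 and in Lyz1, 53 in C1qb, 195 in C1qc and 211 in Mrc1. For Lyz2, C1qb, C1qc and Mrc1 this start differs from that of the gene span given below, which comes from GENCODE. The C1qc stretch directly borders its GENCODE span and the Lyz2 stretch nearly does, so these matches lie nearer to the GENCODE starts. The stretches of Lyz2 and Lyz1 were identical at 61 of 70 positions (87.1%). The shorter string GAGGAA lay before Mrc1, C1qb, C1qc and Itgam, overlapping the AGGAAGT match in C1qc and lying apart from it in Mrc1 and C1qb, and in 23.3% of all promoters. The longer GAGGAAGT, which contains both, lay before C1qc and in 2.44% of all promoters. Cd163 and Cx3cr1 held none of these letters in their windows. The strings were chosen with the windows in view, and a match describes letters only.

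Itgam, the αM integrin chain (CD11b), had 0 counts in all 10 libraries. The gene lies at chr7:128062640-128118491 on the plus strand in mm10, and 99.1% of its exon bases lie inside the span of the annotated gene Gm49368 on the same strand. Only 43 of its 5024 exon bases lie outside the spans of other genes, and 68.5% of the 50-base words in its transcripts also occur in Gm49368. Gm49368 itself had 11 counts over all 10 libraries. Of 288 protein-coding genes like it, with at least 99% of their exon bases inside other genes' spans but not wholly inside a single one, 157 were at 0 in all libraries (54.5%). The share was 2.62% for the 7559 overlapped genes with under 50% of their exon bases inside other spans, and 98.7% (1263 of 1280) for genes wholly inside another gene's span, on either strand. Across all 8917 partly overlapped genes, the class that holds Itgam, 508 were at 0 (5.70%). No source used here gives the counter's rule for overlapping genes, and the 0 of Itgam is not read here as a lack of expression. Itgb2, the β2 chain that pairs with CD11b, was counted, at 23.9 ± 7.91 CPM in untreated tumours (SD, n = 3), 32.8 ± 7.98 CPM at 24 h (n = 3) and 38.0 ± 12.6 CPM at 5 days without library 1 (n = 3). It was at 491 CPM in 5-day library 1.

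Among the other members, 15.1% of the exon bases of Csf1r lie inside Hmgxb3, on the opposite strand, and 2.00% of those of Cx3cr1 lie inside another gene. The remaining members had no such overlap. Levels were compared between genes only per kilobase of exon outside other genes' spans. In untreated tumours Lyz2 stood highest at 309 ± 84.6 CPM per kb (SD, n = 3), above C1qb in all 10 libraries. The C1q chains followed, at 81.8 ± 20.0 for C1qb, 63.9 ± 16.6 for C1qa and 37.5 ± 9.08 CPM per kb for C1qc. Neighbouring C1q means were closer than the sum of their SDs only for C1qb and C1qa, although C1qb was above C1qa in all 10 libraries. The surface receptors were far lower, with Csf1r at 6.93 ± 2.39, Adgre1 at 4.48 ± 1.46, Mrc1 at 3.01 ± 2.26, Cx3cr1 at 1.78 ± 0.623 and Cd163 at 1.06 ± 1.43 CPM per kb. From Csf1r downwards, neighbouring means differed by less than the sum of their SDs.

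C1qa, C1qb and C1qc encode the chains of C1q, the recognition molecule of the classical complement pathway, and lie side by side on the minus strand of chromosome 4 (in mm10, C1qb at 136880129-136886187, C1qc at 136889804-136893065 and C1qa at 136895917-136898803). Per library, C1qb was at 107, 65.0 and 94.8 CPM in untreated libraries 1 to 3, at 113, 171.2 and 168 CPM in 24 h libraries 2 to 4, and at 1223, 160, 131 and 109 CPM in 5-day libraries 1 to 4. Every treated library was above every untreated one for this gene, although the lowest treated value exceeded the highest untreated value by little. Of all genes tested, 7.11% were higher without overlap at 24 h and 4.01% at 5 days. C1qc was at 86.5, 52.7 and 77.9 CPM untreated, 100.5, 140 and 143 CPM at 24 h and 1094, 128, 133 and 85.5 CPM at 5 days. Here the 24 h libraries did not overlap the untreated ones, and 5-day library 4 fell within the untreated range. C1qa was at 80.5, 47.1 and 71.8 CPM untreated, 74.75, 128 and 126 CPM at 24 h and 965, 110, 91.2 and 65.2 CPM at 5 days. For C1qa the groups overlapped at both times, through 24 h library 2 and 5-day library 4.

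The chains kept nearly fixed proportions. The ratio of C1qa to C1qb per kb was 0.625 to 0.825 over all 10 libraries, with the highest value in 5-day library 1, and the ratio of C1qc to C1qb was 0.441 to 0.572. With all libraries, the log2 difference at 24 h was 0.76 ± 0.87 for C1qb, 0.82 ± 0.88 for C1qc and 0.72 ± 0.94 for C1qa (SE, edgeR quasi-likelihood). Without 5-day library 1 the same differences kept their size with SEs of 0.23, 0.24 and 0.29. For 5 days against untreated, the difference was 2.19 ± 0.86 for C1qb with all libraries and 0.58 ± 0.23 without library 1. The larger 5-day values of the C1q genes thus rested on 1 library.

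Lyz2 encodes lysozyme M, a bactericidal enzyme of macrophages and granulocytes, at chr10:117277331-117282321 on the minus strand. It was at 517, 295 and 409 CPM in untreated libraries 1 to 3, at 727, 772 and 714 CPM in 24 h libraries 2 to 4, and at 7062, 903, 939 and 557 CPM in 5-day libraries 1 to 4. All 7 treated libraries were above all 3 untreated ones, and the 24 h libraries were the most alike of the 3 groups for this gene, with a mean of 738 ± 30.8 CPM (SD, n = 3) against 407 ± 111 CPM untreated (n = 3). Higher values without overlap were found for 7.11% of all genes tested at 24 h and 4.01% at 5 days. Without 5-day library 1 the mean at 5 days was 800 ± 211 CPM (n = 3). The difference at 24 h was 0.86 ± 0.24 on the log2 scale without that library, with an unadjusted p of 0.0068 and a Benjamini-Hochberg adjusted p of 0.421 (edgeR quasi-likelihood). At 5 days it was 0.98 ± 0.24, with an unadjusted p of 0.0034 and an adjusted p of 0.336 in the same fit. Lyz2 made up 53.4 to 67.2% of the summed CPM of the 10 members in 9 libraries and 59.2% in 5-day library 1.

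Lyz1, the Paneth cell lysozyme gene next to Lyz2, shares 195 of the 1267 50-base words of the Lyz2 transcripts (15.4%), so reads could be split between the copies. Lyz1 was at 14.7 ± 5.87 CPM untreated (SD, n = 3), 21.9 ± 4.93 CPM at 24 h (n = 3), 24.8 ± 7.68 CPM at 5 days without library 1 (n = 3) and 247 CPM in that library. Per kb it was 0.0237 to 0.0532 times Lyz2 in all 10 libraries. Neutrophils express Lyz2 too. A list of 10 neutrophil genes, S100a8, S100a9 and Elane among them, summed to 0.863 to 3.62 CPM in 9 libraries and to 41.9 CPM in 5-day library 1, with Ly6g at 0 in all 10; none of the 10 passed the filter on low counts.

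Csf1r, at chr18:61100598-61132149 on the plus strand, was at 43.8, 20.95 and 37.1 CPM in the untreated libraries, 43.2, 50.3 and 42.5 CPM at 24 h and 468, 81.7, 51.1 and 39.6 CPM at 5 days. Untreated library 1 overlapped both treated groups, and untreated library 2 was the lowest of all. Adgre1, which encodes the adhesion receptor known as F4/80 and lies at chr17:57358691-57483527 on the plus strand, was at 15.8, 9.25 and 18.5 CPM untreated, 18.0, 29.5 and 26.5 CPM at 24 h and 406, 36.4, 27.7 and 18.1 CPM at 5 days. The lowest treated library of each time fell just under untreated library 3. Without 5-day library 1, the 5-day difference was 0.92 ± 0.32 for Adgre1 and 0.76 ± 0.32 for Csf1r on the log2 scale, with unadjusted p of 0.0173 and 0.0430 and adjusted p of 0.496 and 0.578 (edgeR quasi-likelihood, Benjamini-Hochberg). With it, the differences were 3.07 ± 1.11 and 2.24 ± 0.85. The ratio of Adgre1 to Csf1r per kb was 0.545 to 0.943 in 9 libraries and 1.31 in 5-day library 1.

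The ligands of Csf1r were present at low levels. Csf1 was at 12.2 ± 7.14 CPM untreated (SD, n = 3), 11.01 ± 2.18 CPM at 24 h (n = 3) and 15.3 ± 10.7 CPM at 5 days without library 1 (n = 3), and at 217 CPM in that library. Il34 was at 0.757 ± 0.269, 2.38 ± 1.06 and 2.53 ± 1.58 CPM in the same groups and at 7.42 CPM in 5-day library 1. The untreated values of Il34 rested on 6, 4 and 3 counts, and those at 24 h on 8, 20 and 13. Its 24 h libraries were all above the untreated ones, as for 7.11% of all genes tested. Neither ligand passed the adjusted threshold in any comparison.

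Cx3cr1, the receptor for fractalkine and a marker of microglia, some resident macrophages and patrolling monocytes, lies at chr9:119901616-120069879 on the minus strand. It was at 11.03, 6.46 and 6.10 CPM in the untreated libraries, 4.83, 9.78 and 17.2 CPM at 24 h and 37.1, 6.55, 2.93 and 3.73 CPM at 5 days. The 24 h libraries spanned the whole untreated range, while 5-day libraries 3 and 4 were the lowest of all 10. These low values rested on 17 and 21 counts, with 95% exact binomial intervals of 1.70 to 4.68 and 2.31 to 5.71 CPM, which cover counting error only. Without 5-day library 1, Cx3cr1 was the member with the most negative 5-day difference from untreated, -0.83 ± 0.48 on the log2 scale, and from 24 h, -1.27 ± 0.48; the latter had an unadjusted p of 0.0231 and an adjusted p of 0.602 (edgeR quasi-likelihood, Benjamini-Hochberg). With all libraries both differences were above 0, at 0.67 ± 0.88 and 0.24 ± 0.87.

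Relative to Csf1r, Cx3cr1 was low in every tumour at 5 days, 5-day library 1 included. The ratio of the genes per kb was 0.280, 0.342 and 0.182 in the untreated libraries, 0.124, 0.216 and 0.450 at 24 h and 0.0879, 0.0890, 0.0635 and 0.105 at 5 days. All 4 values at 5 days were below all 6 others. This ratio was chosen after its values were seen and is a description without a test. The ligand Cx3cl1 was at 1.57 ± 0.461 CPM untreated (SD, n = 3), 2.55 ± 1.20 CPM at 24 h (n = 3), 3.17 ± 2.04 CPM at 5 days without library 1 (n = 3) and 33.8 CPM in that library. P2ry12 and Gpr34, of a list of 6 microglia genes, were at 0 in all 10 libraries, and both lie wholly inside other genes' spans, a class in which 98.7% of genes were at 0.

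**Figure D2:**
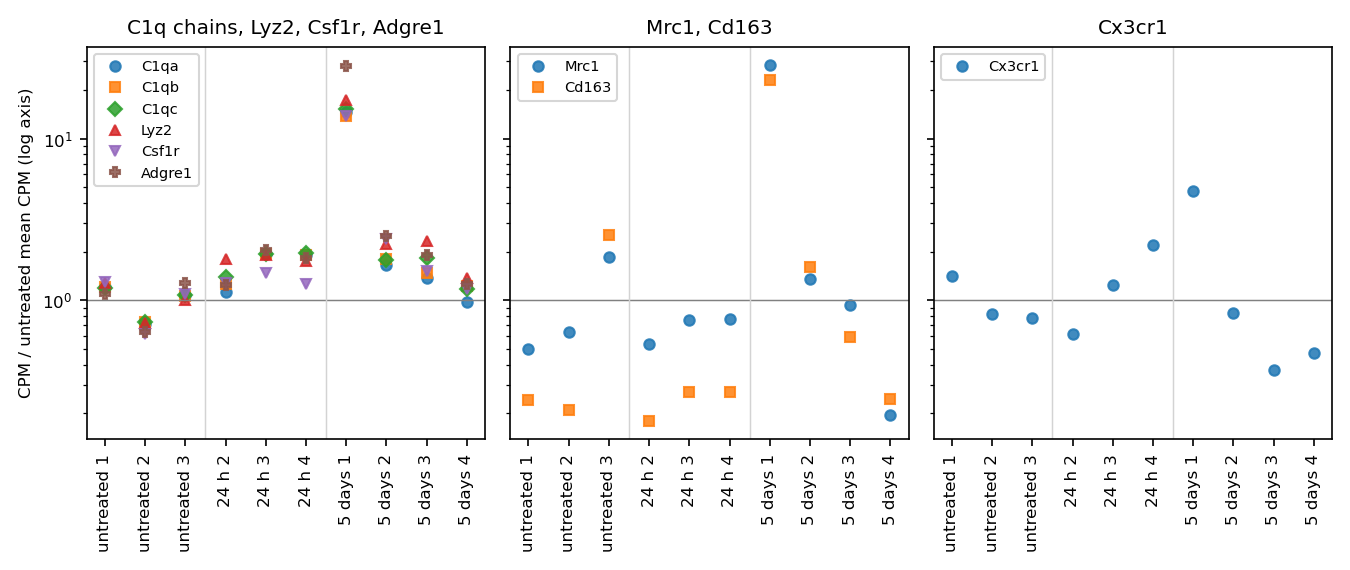
Level of each member divided by its own untreated mean, per library, on a log axis. The first panel holds the C1q chains, Lyz2, Csf1r and Adgre1; in 5-day library 1 they lie between 13.7- and 28.0-fold; the second holds Mrc1 and Cd163, highest among untreated tumours in library 3; the third holds Cx3cr1.

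Mrc1, the mannose receptor CD206, lies at chr2:14229392-14332057 on the plus strand. It was at 9.63, 12.2 and 35.7 CPM in the untreated libraries, 10.4, 14.5 and 14.6 CPM at 24 h and 548, 26.0, 17.9 and 3.73 CPM at 5 days. Untreated library 3 was above all 3 libraries at 24 h and above 3 of 4 at 5 days. Cd163, the haemoglobin scavenger receptor at chr6:124304656-124330527 on the plus strand, was at 1.40, 1.22 and 14.8 CPM untreated, 1.04, 1.57 and 1.57 CPM at 24 h and 133, 9.30, 3.44 and 1.42 CPM at 5 days. Untreated library 3 again stood apart, with 85 counts against 8 and 7 in the other untreated libraries. The 95% exact binomial intervals were 11.8 to 18.3 CPM for library 3 and 0.605 to 2.76 CPM for library 1.

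Directions for these scavenger receptors turned on single libraries. At 24 h the log2 difference was -0.54 ± 1.49 for Mrc1 and -2.05 ± 1.71 for Cd163, and without untreated library 3 it was 0.27 and 0.08. At 5 days against untreated it was 2.95 ± 1.49 for Mrc1 and 2.65 ± 1.56 for Cd163, and without 5-day library 1 it was -0.26 ± 0.71 and -0.29 ± 0.97. The ratio of Mrc1 to Csf1r per kb was 0.740 in untreated library 3 and 0.900 in 5-day library 1, against 0.0724 to 0.449 in the other 8 libraries. Cd163 to Csf1r was 0.358 and 0.255 in those libraries, against 0.0215 to 0.102 elsewhere.

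Several genes of resident macrophages and of fat were high in untreated library 3 and 5-day library 1. Lyve1 was at 1.40, 3.67 and 29.1 CPM in the untreated libraries and 90.1 CPM in 5-day library 1. F13a1 was at 3.33, 3.14 and 22.1 CPM untreated and 192 CPM in 5-day library 1. A list of 13 resident macrophage genes summed to 181, 108 and 287 CPM in the untreated libraries, 185, 203 and 153 CPM at 24 h and 3920, 479, 248 and 166 CPM at 5 days. Selenop, a secreted selenium carrier made by many cell types, was 410 of the 479 CPM in 5-day library 2. Mrc1 and Cd163 were next highest there after untreated library 3 and 5-day library 1. A list of 5 hepatocyte genes summed to 307 CPM in 5-day library 2 and to 0.175 to 8.07 CPM elsewhere. The part of liver RNA in that library was not tested, and it stays in the 5-day means without library 1. Among untreated libraries, Selenop and Timd4 were highest in library 1. The scavenger receptor Marco, of the resident list, was at 6.69 ± 1.68 CPM untreated (SD, n = 3) and 312 CPM in 5-day library 1. Siglec1, which encodes the sialoadhesin CD169, was at 3.14 ± 3.85 CPM untreated (n = 3) and 303 CPM in 5-day library 1. Adipocyte genes summed to 43.9, 101 and 768 CPM untreated, 19.7, 222 and 115 CPM at 24 h and 8136, 1047, 88.8 and 15.6 CPM at 5 days. Fibroblast genes were highest in 5-day library 1 and untreated library 3, and 5-day library 2 was at 1348 CPM, within the range of the others. The part of fat, stroma or resident cells in the Mrc1 and Cd163 values was not tested.

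With all 10 libraries, none of the 9 members tested passed an adjusted p of 0.05 in any of the 3 comparisons (edgeR quasi-likelihood with Benjamini-Hochberg adjustment), where 0% of the 14956 genes tested were called. Itgam did not pass the filter on low counts. DESeq2 called none of the members either, with 0, 21 and 3 genes in all called at 24 h, at 5 days and between the times (0, 0.14 and 0.0201% of genes). Limma voom with quality weights called no member and 3 genes at 24 h (0.0201%), with 0 in the other comparisons. At 24 h against untreated, 7 of 9 members had a log2 difference above 0, with a median of 0.72; 48.5% of all genes were above 0 and their median was -0.01. Of the members, 3 of 9 did not overlap the untreated group and were higher (Lyz2, C1qb and C1qc), and 7.11% of all genes did so (7.15% of those tested without 5-day library 1). None of the members had an unadjusted p under 0.05 with all libraries, where 1.76% of genes did; without 5-day library 1, 5 of 9 did (Lyz2, C1qa, C1qb, C1qc and Adgre1), where 8.1% of the 14699 genes tested did and 49.5% were above 0. The adjusted p of these members was 0.421 to 0.584 in that fit, in which 2 genes, neither of them a member, were called (0.0136%).

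At 5 days against untreated, all 9 members had a difference above 0 with all libraries, with a median of 2.31 on the log2 scale, and 50.6% of all genes were above 0. Unadjusted p was under 0.05 for 6 of 9 members and for 8.4% of genes (edgeR quasi-likelihood). Without 5-day library 1, 6 members were above 0 and 3 below (Cx3cr1, Mrc1 and Cd163), against 49.5% of genes above 0; the median was 0.58, and 5 of 9 members had an unadjusted p under 0.05, where 8.52% of genes did. The members whose groups did not overlap were Lyz2 and C1qb, 2 of 9, where 4.01% of genes were higher without overlap with all libraries and 6.61% without 5-day library 1. Both treated groups were compared with the same 3 untreated libraries, so the 24 h and 5-day differences are not independent.

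Between the treated groups there was little order once 5-day library 1 was left out. With it, all 9 members had 5-day values above those at 24 h on average, with a median difference of 1.68; 52.8% of all genes were above 0. Without it, 5 were above 0 and 4 below, with a median of 0.11 and 49.5% of all genes above 0, and 1 of 9 (Cx3cr1) had an unadjusted p under 0.05, where 7.76% of genes did. With all libraries 2 of 9 (Mrc1 and Cd163) had one, where 6.3% of genes did. No member was higher at 5 days than at 24 h without overlap, where 3.32% of genes were with all libraries and 5.25% without library 1. The C1qa, C1qb and C1qc differences switched sign, from 1.49, 1.43 and 1.50 with all libraries to -0.31, -0.18 and -0.15 without library 1, each with an SE of 0.23 to 0.29 in the latter fit.

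**Figure D3:**
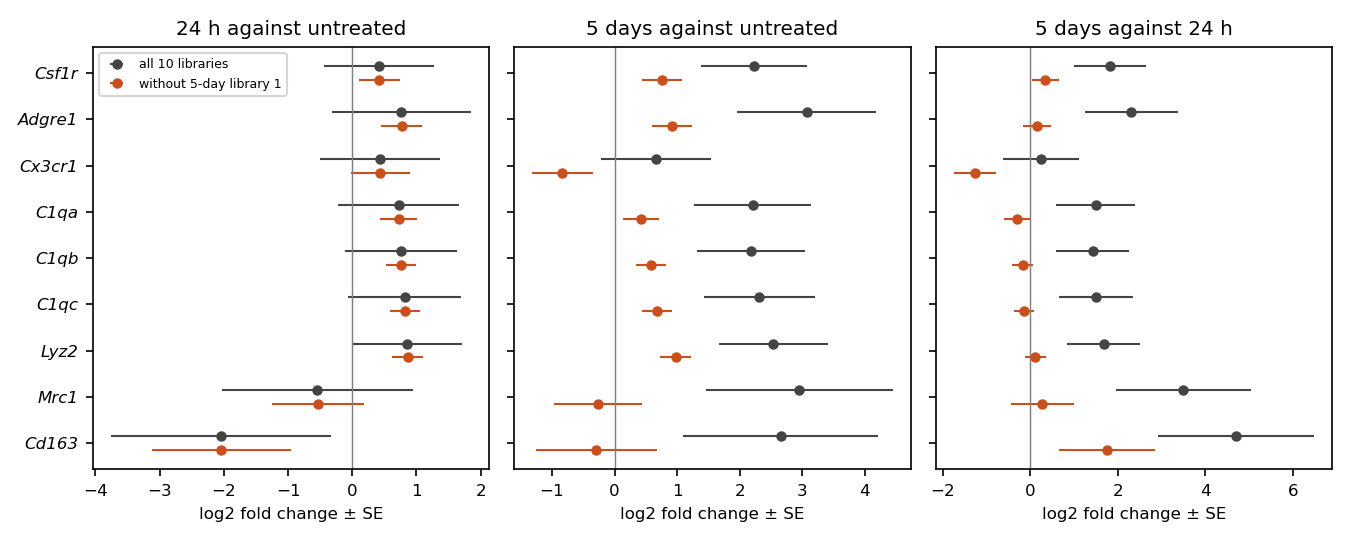
Log2 difference of each member in the 3 comparisons, with its SE, from the fit to all 10 libraries and from the fit without 5-day library 1. Leaving out that library hardly moves the 24 h differences and narrows their SEs; Lyz2 keeps 0.86 with an SE of 0.85 before and 0.24 after. The 5-day differences move towards 0 or below.

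In 5-day library 1 the members stood above the rest by unequal folds. Its level over the untreated mean was 28.6-fold for Mrc1, 28.0-fold for Adgre1, 22.9-fold for Cd163, 17.4-fold for Lyz2, 13.7- to 15.1-fold for the C1q chains, 13.8-fold for Csf1r and 4.72-fold for Cx3cr1. It was above all 9 other libraries in 9 of 9 members tested, and in 37.8% of all genes. It was at least 5-fold above all others in 8 of 9, the exception being Cx3cr1, and in 6.32% of all genes. Among the other 9 libraries, the highest level over the lowest was 2.64 to 2.72 for the C1q chains, 3.19 for Lyz2, 3.90 for Csf1r, 3.93 for Adgre1, 5.90 for Cx3cr1, 9.57 for Mrc1 and 14.3 for Cd163. The C1q chains were thus the steadiest members and Cd163 the most variable, with the fewest counts.

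Of 20 further macrophage genes, 19 were tested and Irf8 was at 0 in all libraries, wholly inside another gene's span. None was called. All 19 had a 24 h difference above 0, with a median of 0.60, and 18 of 19 were above 0 at 5 days without library 1, with a median of 0.46; between 24 h and 5 days without library 1, 9 were above 0 and 10 below. Lgmn, a lysosomal protease, was at 126 ± 20.9 CPM untreated (SD, n = 3) and 186 ± 27.0 CPM at 24 h (n = 3). Mpeg1, a pore-forming protein of phagocytes, was at 125 ± 43.9 and 180 ± 32.0 CPM in the same groups, and Ctss, cathepsin S, at 51.5 ± 13.5 and 84.1 ± 31.8 CPM. The log2 difference of Lgmn at 24 h without 5-day library 1 was 0.57 ± 0.14, with an adjusted p of 0.321 (edgeR quasi-likelihood, Benjamini-Hochberg).

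The list counts that follow are for 24 h against untreated in the fit to all libraries. Of 10 resident macrophage genes tested, 3 were above 0 and 7 below at 24 h, with a median of -0.23. Of 6 monocyte genes tested, 4 were above 0 and 2 below, with a median of 0.24, and Ccr2, the receptor that brings monocytes into tissue, was at 3.90 ± 2.94 CPM untreated (SD, n = 3) and 5.52 ± 3.51 CPM at 24 h (n = 3). Of 10 complement genes outside C1q, 5 were above 0 and 5 below at 24 h; C3, the central complement protein, was at 109 ± 127 CPM untreated and 65.1 ± 60.5 CPM at 24 h (SD, n = 3 each). Without 5-day library 1, 5 monocyte genes were tested at 24 h, with 3 above 0, 2 below and a median of 0.01. The resident and complement counts at 24 h were unchanged in that fit. None of these genes was called. Whether these lists differ from the members was not tested.

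Genes of other immune cells were also counted. Ptprc, the pan-leukocyte CD45, was at 8.91 to 33.4 CPM untreated, 18.1 to 27.6 CPM at 24 h and 14.4 to 30.7 CPM at 5 days without library 1, and at 325 CPM in that library. The 7 dendritic cell genes summed to 8.71 to 30.0 CPM in 9 libraries, the 7 T cell genes to 7.33 to 20.3 CPM, the 5 B cell genes to 0.698 to 3.83 CPM and the 6 NK cell genes to at most 1.92 CPM. In 5-day library 1 these sums were 254, 88.6, 50.2 and 37.1 CPM. The T cell sums were mostly Cd4 and Lck, with 682 and 287 counts over all libraries against 8 to 36 for each other gene. Itgax and Zbtb46 had 1620 and 281 counts, against 2 to 57 for each other dendritic gene. Only these 4 genes passed the filter on low counts, and no B or NK cell gene did. The members summed to 509.5 to 873 CPM untreated, 1092 to 1317 CPM at 24 h, 883 to 1462 CPM at 5 days without library 1, and to 11936 CPM in 5-day library 1. Without Lyz2, the largest part of this sum, the untreated sums were 356, 215 and 357 CPM and 5-day library 4, at 327 CPM, fell among them; the 24 h libraries held 365 to 544 CPM. The adrenergic tumour list overlapped between all groups once that library was left out. The part of tumour cell content in the members' levels was not tested.

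**Figure D4:**
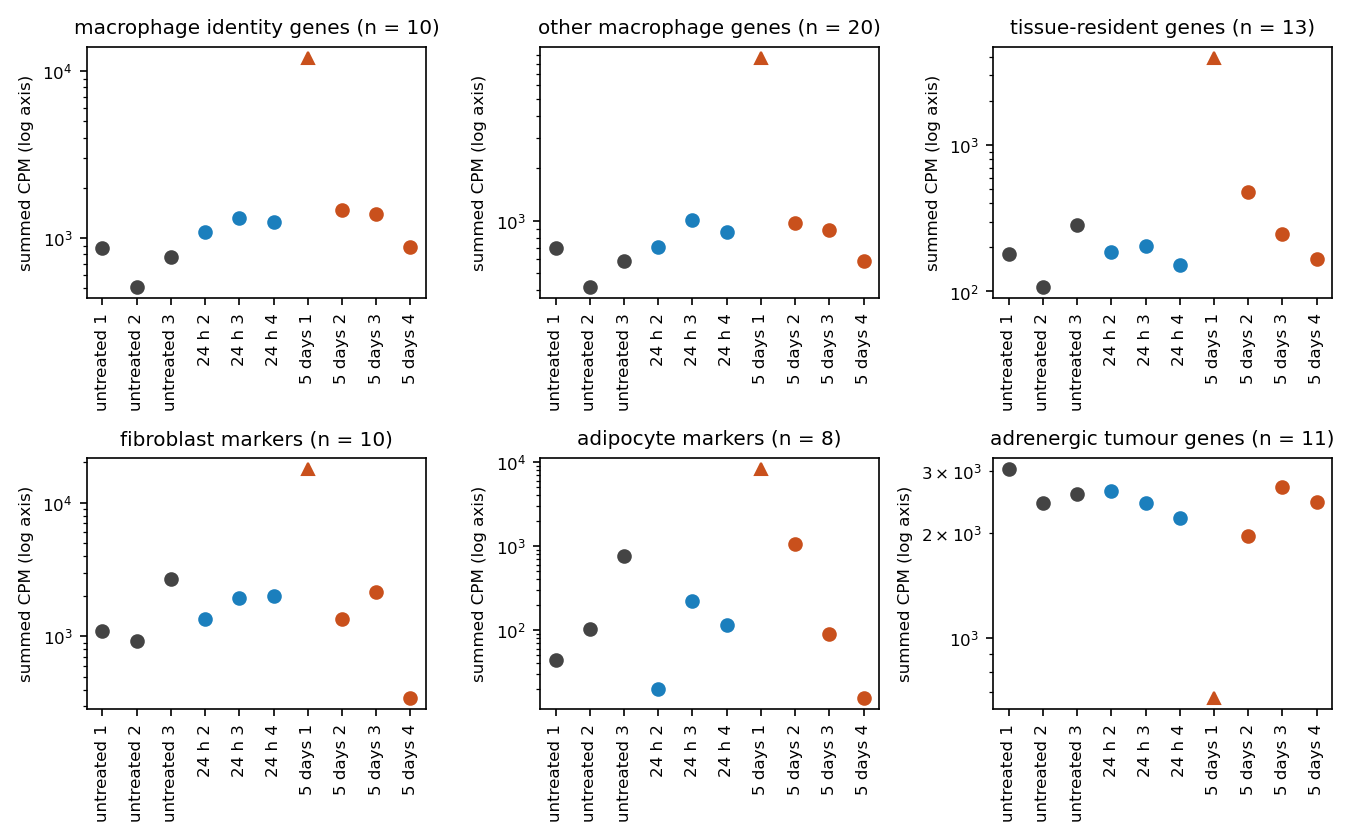
Summed CPM per library of the members and of lists of other macrophage, resident macrophage, fibroblast, adipocyte and adrenergic tumour genes, on log axes, grouped as untreated, 24 h and 5 days. The triangle is 5-day library 1, highest in every list but the adrenergic one, where it is lowest at 673 CPM. Untreated library 3 is the highest untreated point for adipocyte (768 CPM), fibroblast and resident macrophage genes.

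Outside the members, the genes whose level followed the members' mean profile most closely over all 10 libraries were Dap, Ctsh, Cmklr1, Unc93b1 and Fth1. Likeness was the root mean square difference of centred log2 (CPM + 0.5), which was 0.13 to 0.16 for these genes and 1.15 for the median of 12527 genes with a mean of at least 5 CPM. Ctsh encodes the lysosomal protease cathepsin H, Cmklr1 the chemerin receptor, Unc93b1 a protein that carries nucleic acid-sensing Toll-like receptors, and Fth1 the ferritin heavy chain. Over the 9 libraries without 5-day library 1, Dap, Fth1, Anxa4, Qsox1 and Pde8a were nearest, at 0.11 to 0.14 with a median gene at 0.44. This profile includes Itgam, listed at 0 in every library, which flattens it. Against the mean of the 9 members with counts, an alternative added after seeing the data, Anxa4, Parp12, Fth1, Shisa5 and Unc93b1 were nearest over all 10 libraries, at 0.12 to 0.17, and Anxa4, Dap, Sorbs3, Cflar and Wipi1 over 9, at 0.11 to 0.14. The nearest genes thus depended on whether Itgam was counted in. Of the 9 members, C1qa was nearest to their own mean over all 10 libraries, at 0.23, and Cd163 farthest, at 1.02. Dap was at 15.1, 9.43 and 14.6 CPM in the untreated libraries, 12.8, 16.9 and 16.9 CPM at 24 h and 141, 23.4, 17.9 and 11.4 CPM at 5 days.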

How the data were processed

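The files hold whole-number gene counts as the authors deposited them, with Ensembl identifiers and a column for each library. Per the submitters' processing notes, reads were placed on mm10, and TopHat2 2.1.1, HISAT2 and edgeR were named with no role; no source used here gives the counter, its annotation or its strand setting. Symbols and gene spans came from GENCODE M21 (54409 of 54446 identifiers matched), and promoter starts from RefSeq. All 10 columns matched a labelled sample. With edgeR 4.0.16 under R 4.3.3, filterByExpr (minimum count 10, minimum total 15) chose the genes, TMM scaled the libraries (factor 0.812 for 5-day library 1, 1.001 to 1.039 for the others), and the robust quasi-likelihood F test was run on all 10 libraries, with Benjamini-Hochberg adjustment over all genes at 0.05. The F statistic gave the SEs. CPM is the count per TMM-scaled library total. Alternatives were DESeq2 1.42.0, limma 3.58.1 voom weights, other scaling and filters, 2 groups alone, a replicate block and left-out libraries. Fits were tested on simulated data. Named genes were the members, their ligands and partners, Lyz1, up to 4 tested genes per marker list by mean CPM, and the 5 genes nearest in profile; some genes under this rule are not reported here, and genes named only for a count of 0 were chosen after their values were seen. The members, lists, tests and alternatives were chosen with earlier results of these data known.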

Additional observations from a re-analysis of the deposited data

Results flagged for a closer look

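In the 5-day group of 4, library 1 was far from the other 3 for all 9 members with counts: the gap to the nearest library took up over 0.829 of the group's range, the 95% critical value of Dixon's test. Its values were 468 CPM for Csf1r, 406 for Adgre1, 37.1 for Cx3cr1, 548 for Mrc1, 133 for Cd163, 7062 for Lyz2, 965 for C1qa, 1223 for C1qb and 1094 CPM for C1qc. The gap was 0.894 to 0.959 of the range, smallest for Cx3cr1 and largest for Mrc1. Chance puts about 1 in 20 groups past this value, and the 9 genes come from the same library, so these are not 9 separate observations. Groups of 3 were not examined in this way.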

How the results depend on the processing

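No alternative called any member in any comparison. At 24 h, 182 recomputed values kept their side and 6 reversed; for 5 days against untreated these counts were 176 and 13, and for 5 days against 24 h, 163 and 26. Calls over all genes, 0 in each comparison, became at 24 h 3 with limma voom weights, 7 with only the 2 groups compared, 2 without 5-day library 1 and 3 without 5-day libraries 1 and 2; at 5 days against untreated 21 with DESeq2; and at 5 days against 24 h 3 with DESeq2 and 2 without 5-day libraries 1 and 2. Leaving out each replicate in turn gave 0 to 2 calls at 24 h and 0 in the other comparisons. Correlations of deviations from the group means were -0.395 to 0.247 for same-numbered libraries. For differently numbered libraries they were -0.549 to 0.487. With 5-day library 1 kept in, these correlations cannot decide whether the numbers pair the libraries. The replicate block called 0 genes in each comparison. The causes of the reversals were not tested. At 24 h, Cx3cr1 was -0.11 without 24 h replicate 4; Mrc1 was 0.37 with the block, 0.27 without untreated replicate 3 and 0.27 without that library and 5-day library 1; Cd163 was 0.0818 and 0.087 under the latter settings. At 5 days against untreated, the values with voom weights, without 5-day library 1, without libraries 1 and 2, and without library 1 with the block were -0.90, -0.83, -1.24 and -0.67 for Cx3cr1, -0.27, -0.26, -0.82 and -0.34 for Mrc1, and -0.0063, -0.29, -1.25 and -0.24 for Cd163; without 5-day library 1 and untreated library 3, Cx3cr1 was -0.99. At 5 days against 24 h, the same settings, the last included, gave -1.51, -1.27, -1.67, -1.18 and -1.27 for Cx3cr1, -0.31, -0.31, -0.49, -0.29 and -0.31 for C1qa, -0.19, -0.18, -0.33, -0.16 and -0.18 for C1qb, and -0.0924, -0.15, -0.23, -0.15 and -0.15 for C1qc. Cx3cr1 was also -0.0066 with library totals alone, -0.89 with the block and -0.13 without 24 h replicate 2. Without 5-day libraries 1 and 2, Csf1r was -0.0006, Adgre1 -0.11 and Mrc1 -0.28. Leaving out each replicate in turn, the 24 h range was -0.11 to 0.777 for Cx3cr1, -0.864 to 0.27 for Mrc1 and -2.51 to 0.0818 for Cd163. For 5 days against untreated it was -0.83 to 1.0003 for Cx3cr1, -0.26 to 3.74 for Mrc1 and -0.29 to 4.76 for Cd163, and for 5 days against 24 h -1.27 to 0.758 for Cx3cr1, -0.31 to 1.83 for C1qa, -0.18 to 1.74 for C1qb and -0.15 to 1.83 for C1qc. The combinations that leave out 5-day library 1 with the block or with untreated library 3 were chosen after seeing the data. Depth limits Cd163 and Cx3cr1 most, which had 6 to 85 and 17 to 99 counts in 9 libraries.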
